A study of Mus musculus with 2 samples.

Results

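Bach2, Tcf7, Lef1, Il7r, S1pr1, Klf2 and Satb1 are genes that T cells keep on while they are naive or turn into memory cells. The 7 genes were taken by name from the feature list, where each matched 1 of the 33696 mouse genes. They were followed across the deposited clusters of CD8 T cells, CD4 T cells, regulatory T cells (Tregs) and natural killer (NK) cells, and Il7r also in monocytes. These 4 lymphoid types held 1801 of the 8716 cells analysed.

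The genes code for parts of one programme. Tcf7 and Lef1 encode the related transcription factors TCF-1 and LEF-1, which bind the same DNA core, work with beta-catenin and Groucho corepressors, and maintain stem-like and memory T cells. Bach2 encodes a repressor that holds back effector genes, and Satb1 a chromatin organiser of T cell development. Klf2 encodes the transcription factor that switches on S1pr1, the sphingosine 1-phosphate receptor through which lymphocytes leave tissues. Il7r encodes the alpha chain of the receptor for IL-7, the survival cytokine of naive and memory T cells.

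The cells were CD45+ leukocytes, sorted from subcutaneous tumours and read in 1 droplet library with a hashtag antibody for each mouse. The hosts carry human Fc gamma receptors, and the tumour was MC38, a colon carcinoma line of mouse origin. All mice had received 2000000 tumour cells, the treated ones then 2 injections, 3 days apart, of 100 µg of human IgG1 antibody against mouse GITR, a costimulatory receptor of T cells, and cells were sampled 4 days after treatment. The deposited cell table names the groups Untreated (2 mice; the sample labels also speak of PBS), N297A, described there as agonist and Fc-null (2 mice), GA-aFuc, agonist with enhanced Fc (1 mouse), and GITR/Syn GA-aFuc, non-agonist with enhanced Fc (1 mouse). All groups share the tumour line and the human Fc receptor background. The design text speaks of 3 mice per treatment, and the library held 6 hashtags. Each hashtag was taken as 1 mouse. With 1 mouse in each of the Fc-enhanced groups, a treatment effect and the difference of that mouse from others cannot be told apart, and p-values lean on the spread within the Untreated and N297A pairs.

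Mice gave 1379 to 1519 cells and 16479710 to 19339165 UMIs (molecules counted by unique molecular identifiers), with a median of 11259 to 12940 UMIs per cell. Levels are in CPM, the UMIs of a gene per 1000000 UMIs of the same cells. The deposited names were checked against markers. CD8 T cells had a summed Cd8a and Cd8b1 level of 1540 CPM and NK cells one of 4.27. Tregs carried Foxp3 at 265 CPM, but also macrophage markers at a summed 3250, against 781 in CD8 T cells and 607 in NK cells. The cells named CD4 went partly against their name: cluster 35 carried Cd4 at 196 CPM beside the gamma-delta T cell gene Trdc at 312 and Rora at 915, and cluster 59 carried Cd4 at 227 beside Cd8b1 at 393. CD8 cluster 23 carried Trdc at 60.2 and the NK receptor gene Klrb1c at 59.1 CPM, against at most 3.58 and 5.08 in the other CD8 clusters. Of the other NK markers, Ncr1 was at 12.5 there against at most 1.11. Klre1 went the other way, at 175 in cluster 23 against 193 to 292 in the other CD8 clusters. The part of these admixed markers in the levels below was not tested.

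Promoters are shown for Bach2 and Il7r, the members called between treatments, and for Klf2, whose product switches on S1pr1; each has a single promoter entry in RefSeq (mouse build GRCm38.p6). The 250 bases before each start site are shown 5′ to 3′, in the direction of the gene. Capitals mark the sequence CAAAG in Bach2, the reverse complement of the core bound by TCF and LEF factors. In Il7r they mark CTTCCTG, a core of ETS factors. In Klf2 they mark TAAATTTA, which is like the core of MEF2 factors.
Bach2, chr4:32417185-32417434, strand +: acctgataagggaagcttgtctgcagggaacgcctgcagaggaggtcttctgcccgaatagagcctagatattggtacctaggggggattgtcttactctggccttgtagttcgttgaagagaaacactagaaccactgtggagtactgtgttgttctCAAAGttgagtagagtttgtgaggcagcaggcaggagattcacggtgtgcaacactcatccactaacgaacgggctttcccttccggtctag
Il7r, chr15:9529877-9530126, strand -: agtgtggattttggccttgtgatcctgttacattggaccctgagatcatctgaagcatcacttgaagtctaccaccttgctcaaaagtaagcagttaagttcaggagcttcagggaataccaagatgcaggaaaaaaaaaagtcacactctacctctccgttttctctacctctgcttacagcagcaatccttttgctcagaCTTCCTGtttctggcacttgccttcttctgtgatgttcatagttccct
Klf2, chr8:72318812-72319061, strand +: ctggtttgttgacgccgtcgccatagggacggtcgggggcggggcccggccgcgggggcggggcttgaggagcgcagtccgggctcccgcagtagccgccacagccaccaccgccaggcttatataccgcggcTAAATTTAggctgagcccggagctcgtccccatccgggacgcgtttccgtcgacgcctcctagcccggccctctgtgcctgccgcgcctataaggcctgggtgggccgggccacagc
Both strands were searched. Over the 32851 RefSeq promoter windows of this length, 48.6% held CTTTG, 10.8% held CTTCCTG and 0.502% held TAAATTTA. Of 14 windows of 6 members, 7 held CTTTG, 11 held the KLF box CACCC (52.0% of all windows) and 0 held the FOXO core GTAAACA (3.17%) or the AP-1 core TGANTCA (6.75%), whose letters overlap with BACH2 sites. S1pr1 had no entry. A match is a description of these letters and not a bound site.

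Lef1 was read mainly in lymphocytes, and Tcf7 in lymphocytes and in mature regulatory dendritic cells (58.6 CPM pooled over 57 cells). Tcf7 stood at 57.1 ± 34.7 (SD, n = 6 mice) CPM in CD4 T cells, 37.2 ± 7.69 in NK cells and 12.9 ± 4.00 in CD8 T cells. Tregs held 0 Tcf7 UMIs in 74 cells of 6 mice, which allows up to 6.11 CPM (3 counts over all Tregs). Against that limit the pooled level was at least 8.78-fold higher in CD4 T cells, at least 5.93-fold higher in NK cells and at least 2.13-fold higher in CD8 T cells. Monocytes and macrophages held 0.935 ± 0.430 and 0.655 ± 0.277. The ranges of NK cells (29.1 to 50.0) and CD8 T cells (5.59 to 16.9) did not overlap, whereas CD4 T cells (20.5 to 93.8) overlapped with NK cells.

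The Lef1 mean was likewise lower in CD8 T cells, at 44.5 ± 11.2 (SD, n = 6) CPM, than in NK cells (101 ± 16.7) and CD4 T cells (96.9 ± 55.1). Unlike Tcf7, Lef1 was also read in Tregs. NK and CD4 cells did not differ beyond their spread. Tregs, in the 4 mice with at least 10 of them, had 52.2 ± 24.7 Lef1 CPM, which overlaps with CD8 T cells. The level in monocytes was 0.676 ± 0.585 and in macrophages 0.540 ± 0.473.

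Bach2 was highest in CD4 T cells and NK cells, at 396 ± 120 and 379 ± 61.6 (SD, n = 6) CPM, and these ranges overlapped. CD8 T cells held 194 ± 66.8, with a range of 109 to 284 that lay below the NK range of 309 to 458. Bach2 was also read in monocytes (134 ± 22.1) and macrophages (59.0 ± 15.0). Tregs, at 22.1 ± 26.3 in 4 mice, had the lowest level among lymphocytes. Their pooled 44.8 CPM, 22 UMIs in all, lay near the 48.8 of barcodes with at most 100 mouse UMIs, which hold mostly free RNA. These UMIs were uneven over cells: 1 Treg held 7 of the 8 in N297A replicate 1, and 1 held all 8 in the GITR/Syn GA-aFuc mouse. The part of free RNA was not tested.

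Satb1 was far higher in lymphocytes than in monocytes and macrophages. CD4 T cells had 508 ± 208 (SD, n = 6) CPM, NK cells 498 ± 95.5, CD8 T cells 333 ± 33.4 and Tregs 307 ± 98.9 (n = 4), and neighbours in this order overlapped. Monocytes and macrophages had 4.06 ± 2.21 and 2.65 ± 1.67. Dendritic cells lay between, at 27.0 ± 12.0 in cDC2 (n = 6), and pooled at 65.7 in plasmacytoid dendritic cells (21 cells) and 73.3 in mature regulatory ones (57 cells). Single mice reached 189 and 238 in these last types, within the 169 to 395 of the Tregs.

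Klf2 and its target S1pr1 had different orders over the types. Klf2 stood at 132 ± 24.4 (SD, n = 6) CPM in macrophages, above 73.5 ± 9.10 in monocytes, 67.1 ± 18.1 in NK cells, 64.2 ± 25.4 in CD4 T cells and 56.5 ± 16.8 in CD8 T cells, and the last 4 types overlapped. The free RNA held 102 Klf2 CPM, more than any of those 4. A level in free RNA is not the amount that it adds to cells: for Satb1 it was 33.1, against 2.65 in macrophages. The part of free RNA in the Klf2 levels was not tested. S1pr1 was at 69.8 ± 31.4 in CD4 T cells, 12.0 ± 5.10 in CD8 T cells and 5.35 ± 2.53 in NK cells, against 2.34 ± 0.902 in macrophages and 1.59 ± 0.976 in monocytes. Tregs had Klf2 at 86.7 ± 64.2 and S1pr1 at 23.4 ± 22.4 CPM (n = 4).

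Il7r was a T cell gene with a second, myeloid location. Tregs had 505 ± 126 (SD, n = 4) CPM, CD4 T cells 407 ± 133, CD8 T cells 185 ± 43.1 and NK cells 10.3 ± 7.89 (n = 6 each). The ranges of CD8 T cells (145 to 250) and CD4 T cells (262 to 650) did not overlap, and those of CD4 T cells and Tregs did. Among myeloid cells the level was 139 ± 44.4 in cDC2 (n = 6), 81.1 ± 44.8 in monocytes and 59.3 ± 23.4 in macrophages. Pooled over few cells, it was 401 in mature regulatory dendritic cells (57 cells), 263 in plasmacytoid ones (21 cells) and 1.12 in cDC1 (47 cells).

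Within CD8 T cells, cluster 23 (151 cells) held the highest pooled level of Bach2, Tcf7, Lef1, S1pr1, Klf2 and Satb1, but not of Il7r. Its cells were the shallowest of the CD8 clusters, with a median of 5242 UMIs against 5980 to 15120. The share of all genes that were highest in this cluster was not computed. The contrast was sharpest for Tcf7 and S1pr1. Tcf7 stood at 103 ± 30.7 (SD, n = 6 mice) CPM in cluster 23, with mice at 107, 76.1, 97.4, 145, 129 and 64.8 in the order Untreated 1 and 2, N297A 1 and 2, GA-aFuc and GITR/Syn GA-aFuc. No mouse was above 25.1 in any other CD8 cluster. S1pr1 stood at 94.7 ± 20.2 in cluster 23, with mice between 55.2 and 111, and at most 37.0 in any mouse of another cluster. Lef1 was at 185 ± 59.9 there, against cluster means of 24.3 to 50.0 elsewhere, and Klf2 at 156 ± 88.8, against 31.9 to 54.7. Bach2 (406 ± 127) and Satb1 (451 ± 108) were less set apart: cluster 16 had 269 ± 122 and 456 ± 80.3, so that for Satb1 cluster 23 led only in the pooled level (476 against 452), and the mice overlapped. Cluster 33 had the lowest Bach2 (81.0 ± 29.6) and Satb1 (222 ± 53.3) of the CD8 clusters. Il7r was highest in cluster 16 (262 ± 86.3) and lowest in cluster 38 (132 ± 36.1), with overlapping ranges. Clusters were made by the authors from the same cells, so that these differences are a description without a test.

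In NK cells, cluster 26 had the highest mean of Bach2, Lef1, S1pr1, Klf2 and Satb1. It was the shallowest NK cluster, with a median of 4293 UMIs per cell against 5876 to 22120. How large a share of all genes was highest there was not computed. Tcf7 ranged only from 32.7 to 45.5 CPM over the means of the 5 NK clusters. Cluster 26 (169 cells) led in Lef1 (122 ± 57.1), with mice that overlapped those of the other NK clusters, and in Bach2 (814 ± 209, SD, n = 6), Satb1 (1034 ± 198), Klf2 (207 ± 93.9) and S1pr1 (30.5 ± 15.0), followed by cluster 19 with Bach2 at 643 ± 54.8 and Satb1 at 707 ± 183. Cluster 48 (95 cells), whose summed T cell markers of 306 CPM were above the 48.6 to 180 of the other NK clusters, had the lowest Bach2 (163 ± 56.5) and Satb1 (229 ± 59.9), and 0 S1pr1 UMIs, which allows up to 2.39 CPM. Il7r stayed at cluster means of 3.25 to 25.9 in NK cells.

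The clusters named CD4 had different levels of the exit genes. Cluster 35 (58 cells) had S1pr1 at 124 ± 58.9 (SD, n = 6), Klf2 at 114 ± 50.8 and Il7r at 568 ± 247 CPM. Cluster 59 (39 cells) had 11.7 ± 22.9, 14.1 ± 20.4 and 222 ± 45.5. The Il7r levels of the mice did not overlap between them (319.9 to 1042 against 160 to 287). Bach2 and Satb1 did overlap (342 ± 137 and 460 ± 174 against 450 ± 114 and 544 ± 267). Macrophage markers summed to 2150 CPM in cluster 35 and 461 in cluster 59, and their part in the Klf2 and Il7r levels was not tested.

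**Figure D1:**
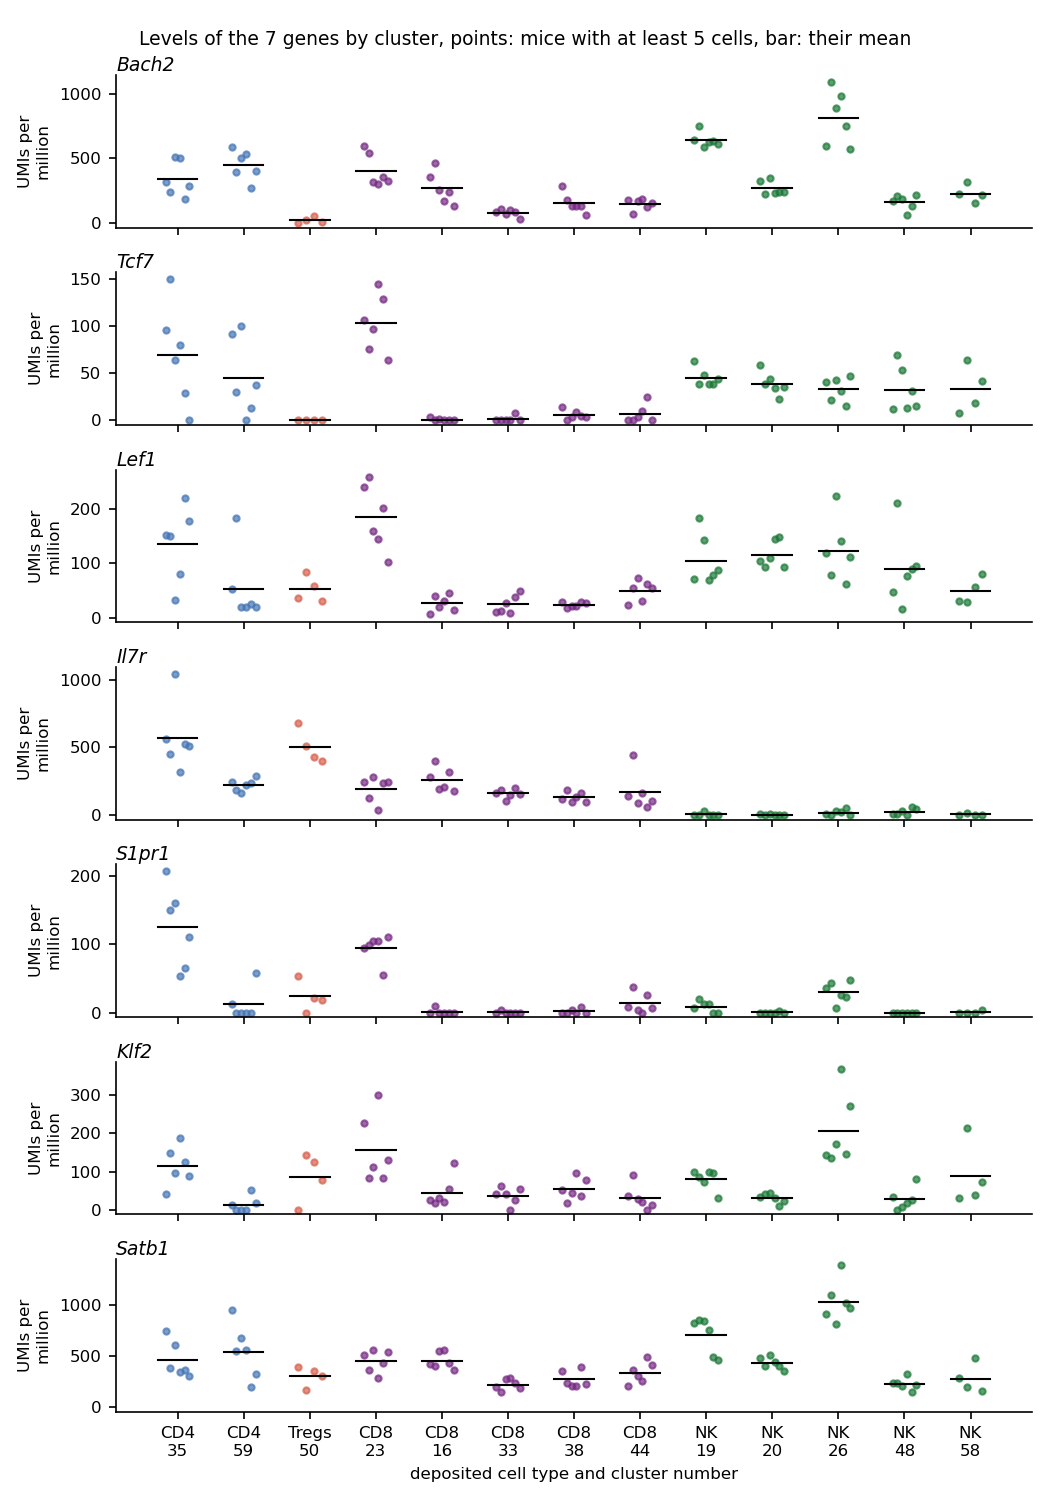
Levels of the 7 genes (CPM, own linear axis per gene) in the deposited clusters of CD4, Tregs, CD8 and NK cells. Points are mice with at least 5 cells of the cluster and bars their mean; Tcf7 and S1pr1 stand out in CD8 cluster 23, Bach2 and Satb1 are highest in NK cluster 26, and Tcf7 is at 0 in the Tregs of every mouse shown.

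Detection per cell was compared after thinning each cell to 2000 UMIs, since clusters differ in depth. In CD8 cluster 23 a Tcf7 UMI was left in 20.5% of 151 cells (exact 95% binomial interval 14.4 to 27.9, counting error only; 32.5% unthinned, median depth 5242 UMIs). Clusters 16 and 33 had 0 of 291 and 0 of 202 cells, which allow up to 1.03% and 1.49%, and macrophages, which should lack the gene, 0.171% (median depth 15220 UMIs). S1pr1 was left in 14.6% of cells of cluster 23 (9.36 to 21.2; 30.5% unthinned), in 0 of 291 cells of cluster 16 and in 0.392% of macrophages. Lef1 was left in 21.9% of cells of cluster 23 (39.7% unthinned), 15.2% of NK cells and 0.0245% of macrophages. Satb1 was left in 41.1% of cells of cluster 23, below cluster 16 at 52.9% and cluster 44 at 46.0%. Il7r was left in 47.9% of Tregs and 26.7% of CD8 T cells, whereas NK cells had 1.11% and macrophages 9.69%. For Bach2, CD8 cluster 33 at 12.9% (8.58 to 18.3) could not be told from macrophages at 10.0%, and Tregs had 4.11%. No type here surely lacks Bach2 or Klf2. For Klf2, lymphoid types (8.82% of CD8 T cells to 20.5% of Tregs) were not above macrophages at 19.8% beyond counting error.

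**Figure D2:**
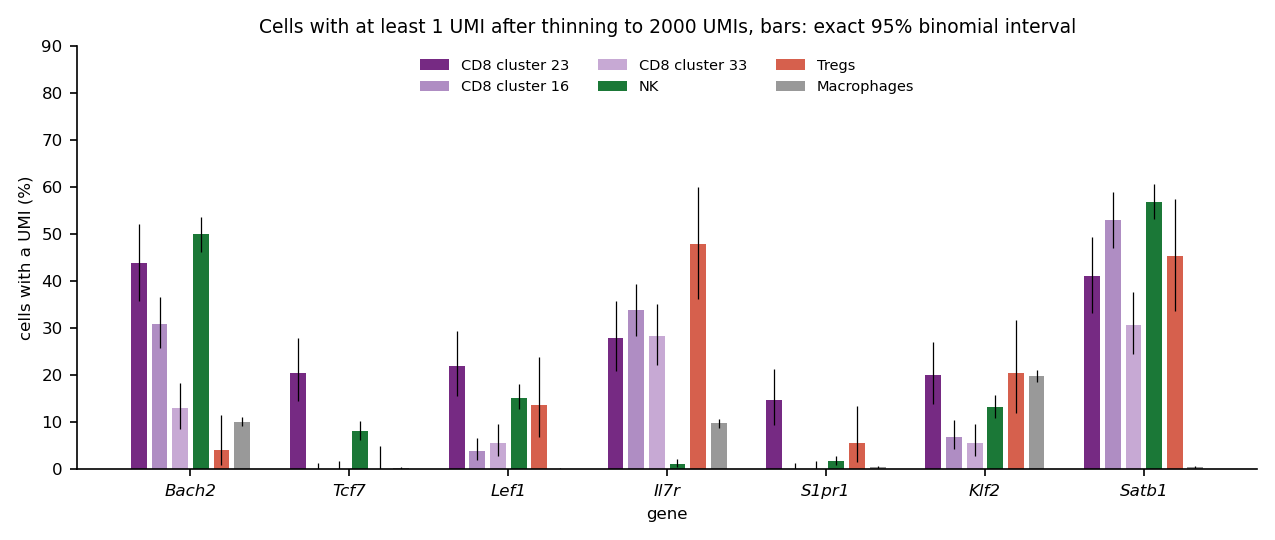
Share of cells (percent, axis from 0) with at least 1 UMI of each gene after thinning to 2000 UMIs, in 3 CD8 clusters, NK cells, Tregs and macrophages, with exact 95% binomial intervals. Tcf7 and S1pr1 are seen in CD8 cluster 23 (20.5% and 14.6%) and at 0% in clusters 16 and 33, while Klf2 is as frequent in macrophages (19.8%) as in cluster 23 (19.9%).

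Cells of cluster 23 with a Tcf7 UMI carried each of the 4 other members examined in a higher share than those without, at this thinned depth. Klf2, Satb1 and the share over all genes were not examined. Of the 31 cells with a Tcf7 UMI, 38.7% had an Il7r UMI, 35.5% Lef1, 54.8% Bach2 and 19.4% S1pr1 (6 cells). The other 120 cells had 25.0%, 18.3%, 40.8% and 13.3% (16 cells). Pdcd1, which encodes the checkpoint receptor PD-1, was read in 9.68% against 21.7%, Slamf6, a marker of progenitor exhausted T cells, in 6.45% against 6.67%, and the granzyme gene Gzmb in 54.8% against 69.2%. Cells of 1 library are not replicates, and these shares were not tested.

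The levels of the types were compared within mice, with the mouse as a block in edgeR's quasi-likelihood test over all genes. The authors named the types from the same cells, so that the test measures agreement between mice. Between CD8 T cells and NK cells, 6 of 7 genes differed at an adjusted p under 0.05, against 32.4% of the 9676 genes tested. Il7r was higher in CD8 T cells by 4.10 on the log2 scale (SE 0.34, edgeR adjusted p = 0.000225), and S1pr1 by 1.08 (SE 0.28, adjusted p = 0.00346 in edgeR, 0.065 in DESeq2). Lef1 was lower in CD8 T cells (log2 difference -1.23, SE 0.10), as were Tcf7 (-1.55, SE 0.19), Bach2 (-1.06, SE 0.15) and Satb1 (-0.61, SE 0.11), with edgeR adjusted p-values of 1.95e-10, 1.85e-07, 0.000973 and 0.00101. Klf2 did not pass (-0.31, SE 0.13, edgeR adjusted p = 0.0798), and without the GITR/Syn GA-aFuc mouse it did (-0.45, adjusted p = 0.00747).

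Tregs and CD8 T cells were compared in the 4 mice with at least 10 Tregs, and 2 of the 6 genes tested differed, against 20.6% of 7424 genes. Bach2 was lower in Tregs (log2 difference -3.20, SE 0.39, edgeR adjusted p = 5.44e-08) and Il7r higher (1.28, SE 0.19, adjusted p = 5.23e-07). Klf2 (0.61, adjusted p = 0.294) passed only without Untreated replicate 1 (0.97, adjusted p = 0.0384). Tcf7 was too low to be tested. Tregs and CD4 T cells of the same 4 mice differed in 2 of the 5 genes tested, against 6.98% of 2767 genes: Bach2 was lower in Tregs by -4.26 (SE 0.48, edgeR adjusted p = 6.79e-05) and Satb1 by -1.01 (SE 0.27, adjusted p = 0.0312). Leaving out any of the 4 mice ended the Satb1 call, with adjusted p-values of 0.0761 to 0.137.

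CD4 T cells were above CD8 T cells in 5 of 7 genes, against 12.5% of 7984 genes with a difference in either direction. The log2 differences were 2.47 for S1pr1 (SE 0.37, edgeR adjusted p = 6.98e-07), 1.90 for Tcf7 (SE 0.40, adjusted p = 0.000317), 1.02 for Il7r (SE 0.18, adjusted p = 2.11e-05), 0.98 for Lef1 (SE 0.27, adjusted p = 0.00743) and 0.92 for Bach2 (SE 0.19, adjusted p = 0.000238). Mice had only 12 to 24 CD4 T cells each. Once the cell with the most UMIs of a gene was left out in each mouse, 2 of the 5 remained past the threshold, Bach2, Tcf7 and Lef1 having adjusted p-values of 0.0973, 0.0554 and 0.447. Il7r fell short among cells with at least 90% of hashtag UMIs from 1 hashtag (0.59, adjusted p = 0.0617). Without the GA-aFuc mouse Lef1 fell short (0.80, adjusted p = 0.104) and Satb1 passed (0.57, adjusted p = 0.0348).

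The effect of the antibodies was asked next. In CD8 T cells, Bach2 was at 263 and 284 CPM in the Untreated mice, 177 and 156 in the N297A mice, 173 in the GA-aFuc mouse and 109 in the GITR/Syn GA-aFuc mouse. All 4 treated mice lay below both Untreated mice. Bach2 fell by 1.30 on the log2 scale with GITR/Syn GA-aFuc (SE 0.19, edgeR adjusted p = 0.000763), 1 of 7 genes called against 0.154% of 9763 genes. Without Untreated replicate 2 the change was -1.25 and no longer passed (adjusted p = 0.145). For N297A the change was -0.67 (SE 0.14, edgeR adjusted p = 0.12) and for GA-aFuc -0.64 (SE 0.18, adjusted p = 0.528). The N297A value passed without N297A replicate 1 (-0.80, adjusted p = 0.0467), with no filter on low counts (0.0164) and among cells with at least 90% of hashtag UMIs from 1 hashtag (0.033). The share of CD8 T cells with a Bach2 UMI, unthinned, was 50.3% and 62.2% in the Untreated mice, 56.6% and 43.1% with N297A, 53.0% with GA-aFuc and 31.5% with GITR/Syn GA-aFuc. By this share the GA-aFuc mouse and N297A replicate 1 lay between the Untreated mice.

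The lower Bach2 was spread over the CD8 clusters. The GITR/Syn GA-aFuc mouse lay below both Untreated mice in 4 of 5 clusters, namely 16 (134 against 354 and 464 CPM), 23 (324 against 594 and 540), 33 (28.8 against 87.5 and 110) and 38 (60.2 against 290 and 182). In cluster 44 it had 156, between the 73.9 and 176 of the Untreated mice. The N297A mice were below both Untreated mice in 4 and 3 clusters and the GA-aFuc mouse in 3. N297A replicate 2 lay above both Untreated mice in 1 cluster. Cluster 23, the richest in Bach2, made up 14.1% and 20.7% of CD8 T cells in the Untreated mice, 21.7% and 18.3% with N297A, 13.4% with GA-aFuc and 12.3% with GITR/Syn GA-aFuc. Summed macrophage markers in CD8 T cells were 856 and 643 CPM in the Untreated mice and 763 in the GITR/Syn GA-aFuc mouse. Monocyte markers, mostly Ly6c2, summed to 1480 and 1520 against 2240. Over all CD8 T cells Ly6c2 was at 1810, against 2270 in monocytes, while Vcan was at 1.85 against 41.9 and Ccr2 at 56.7 against 440. The monocyte sum in CD8 T cells is therefore not a measure of monocyte RNA alone. The part of admixed RNA in the Bach2 values was not tested.

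**Figure D3:**
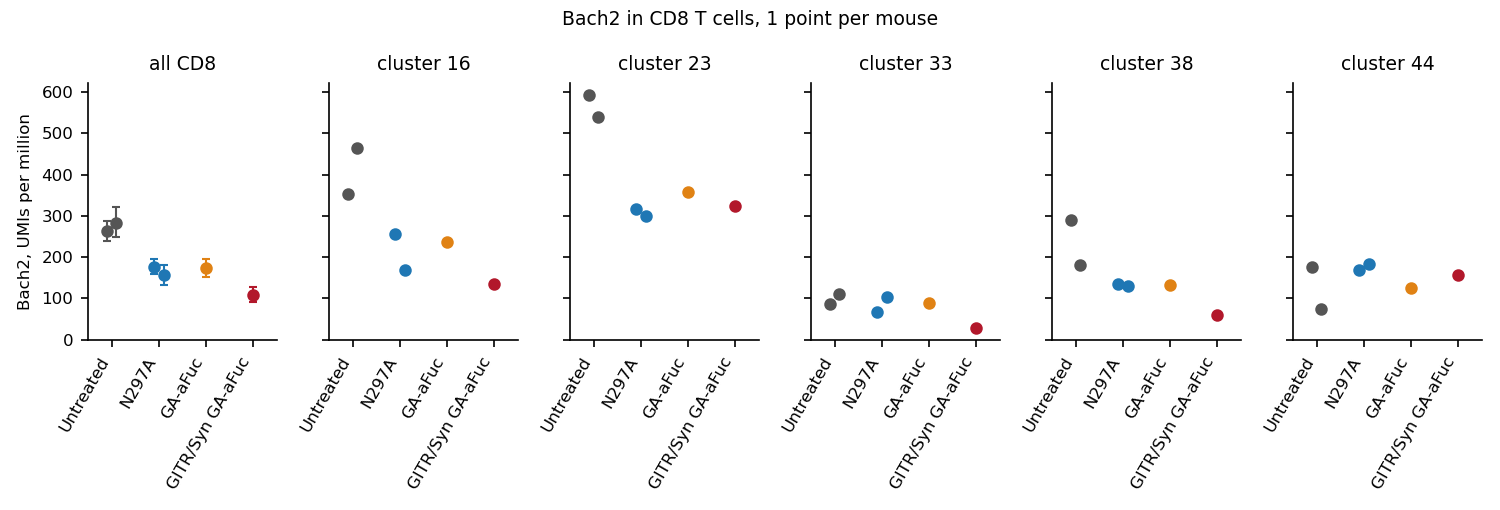
Bach2 level (CPM, axis from 0) in all CD8 T cells and in each CD8 cluster, 1 point per mouse, with exact 95% Poisson intervals of the count in the first panel. All 4 treated mice lie below both Untreated mice over all CD8 T cells, and the GITR/Syn GA-aFuc mouse does so in clusters 16, 23, 33 and 38.

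The other 6 genes did not pass in CD8 T cells. With GITR/Syn GA-aFuc, Tcf7 was at 5.59 CPM against 13.8 and 11.6 in the Untreated mice and 14.9, 16.9 and 14.9 in the N297A and GA-aFuc mice. This is the lowest of the 6 mice (change -1.18, SE 0.54, edgeR adjusted p = 0.866). Klf2 was at 85.9 there, against 55.6 and 44.0 (0.77, SE 0.24, edgeR adjusted p = 0.388), the highest of the 6 mice. But 1 cell held 30 of its 123 Klf2 UMIs, against at most 12 in a cell of another mouse. A Klf2 UMI was read in 19.1% of its CD8 T cells, unthinned, against 19.3% to 24.9% in the other mice. With N297A, 0 of 7 genes were called by edgeR, and 0 by DESeq2 and limma-voom, against 0.0205% of genes. At an unadjusted p under 0.05 there were 2. With GA-aFuc, 0 of 7 were called by each tool, against 0.0922%, with 1 at an unadjusted p under 0.05. GA-aFuc against N297A gave 0 of 7 with each tool, against 0.041%, and 1 unadjusted, Il7r, which was at 222 CPM with GA-aFuc and at 145 and 152 with N297A (0.58, SE 0.18, edgeR adjusted p = 0.963).

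NK cells showed 0 called genes among the 7 in each of the 4 comparisons, with edgeR, DESeq2 and limma-voom. The background was 0.0108% of 9223 genes for N297A, 0.0651% for GA-aFuc, 0.0434% for GITR/Syn GA-aFuc and 0.119% for GA-aFuc against N297A, and 1, 2, 1 and 2 of the 7 had an unadjusted p under 0.05. Bach2 in NK cells was at 367 and 450 CPM in the Untreated mice, 458 and 358 with N297A, 309 with GA-aFuc and 334 with GITR/Syn GA-aFuc, so that the groups of Untreated and N297A mice overlapped. Satb1 had the smallest p in 3 of the comparisons. It was at 515 and 562 in the Untreated mice, 543 and 606 with N297A, 367 with GA-aFuc and 396 with GITR/Syn GA-aFuc. The changes were -0.49 (SE 0.15, edgeR adjusted p = 0.622) for GA-aFuc, -0.40 (SE 0.15, 0.825) for GITR/Syn GA-aFuc and -0.58 (SE 0.15, 0.29) for GA-aFuc against N297A. With N297A the smallest p was that of Klf2 (0.59, SE 0.19, edgeR adjusted p = 1.0), at 94.9 and 83.4 against 59.5 and 57.3 CPM.

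Whether CD8 T cells and NK cells responded differently was tested directly, in a model over both types. The difference in the Bach2 change was -1.08 (SE 0.215) for GITR/Syn GA-aFuc, with an unadjusted p of 6.5e-05 and an edgeR adjusted p of 0.334. None of the 7 genes passed for N297A, GA-aFuc or GITR/Syn GA-aFuc, where 0.00973%, 0.0487% and 0.0% of 10277 genes did.

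**Figure D4:**
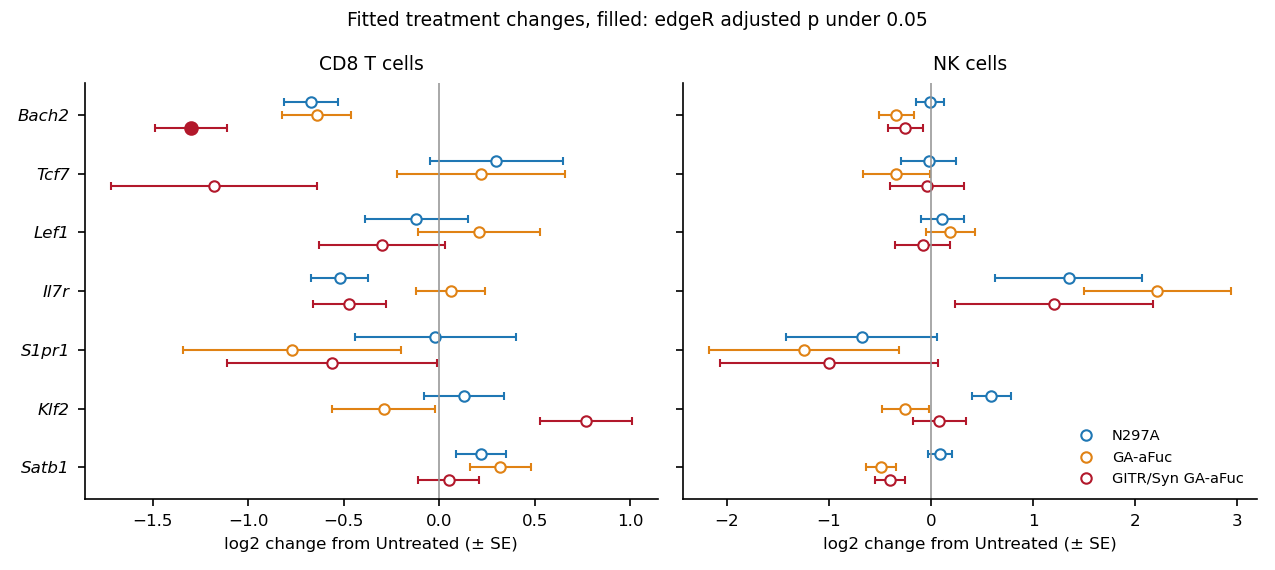
Fitted log2 change from Untreated (± SE) of the 7 genes in CD8 T cells and NK cells for the 3 antibodies, each panel on its own axis. Filled points passed an edgeR adjusted p of 0.05, which holds only for Bach2 in CD8 T cells with GITR/Syn GA-aFuc (-1.30).

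Il7r in monocytes was higher with the Fc-enhanced antibodies. The Untreated mice had 39.0 and 60.2 CPM and the N297A mice 59.0 and 56.4, against 117 in the GA-aFuc mouse and 155 in the GITR/Syn GA-aFuc mouse. Both Fc-enhanced mice lay above all 4 other mice. The free RNA held 34.3 Il7r CPM, near the lower Untreated mouse, and its part in these levels was not tested. The rise with GITR/Syn GA-aFuc was 1.64 on the log2 scale (SE 0.21, edgeR adjusted p = 0.0344, against 0.21% of 11422 genes called). The call was lost without either N297A mouse (adjusted p = 0.0768 and 0.0759), without the top 5% of cells by UMIs (0.293) and without the top Il7r cell of each mouse (0.0627), at changes of 1.62 to 1.66. For GA-aFuc the change was 1.21 (SE 0.22, edgeR adjusted p = 0.14, against 0.193%), and it passed without either Untreated mouse (0.93, adjusted p = 0.0175; 1.58, adjusted p = 0.00102), in DESeq2 (0.0348) and with no filter on low counts (2.93e-11). GA-aFuc against N297A gave 0.98 (SE 0.22, edgeR adjusted p = 0.572, against 0.0175%), which passed without either Untreated mouse (0.0184 and 0.0228) and with no filter (6.98e-07). For N297A the change was 0.23 (SE 0.19, adjusted p = 0.999, against 0.00876%). Of the 5 members tested in monocytes, Il7r was the 1 called, while Tcf7 and Lef1 were too low to be tested.

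The higher Il7r was not limited to a few monocytes. A UMI was found in 15.6% and 23.1% of monocytes in the Untreated mice, 23.6% and 24.1% with N297A, 35.5% with GA-aFuc and 37.6% with GITR/Syn GA-aFuc, unthinned. In 13 of 15 monocyte clusters the GITR/Syn GA-aFuc mouse lay above both Untreated mice, and the GA-aFuc mouse did so in 9; the N297A mice did in 6 and 5. The highest cluster was 0, with 113 and 146 CPM in the Untreated mice, 168 and 89.3 with N297A, 319 with GA-aFuc and 364 with GITR/Syn GA-aFuc. Summed T cell markers in monocytes were 11.1 to 23.4 CPM, against 4000 in CD8 T cells. Markers of mature dendritic cells, which carry Il7r as well, summed to 3.41 to 6.87. Il7r was also read in cDC2 and plasmacytoid dendritic cells. The part of admixed RNA in the Il7r values of monocytes was not tested.

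Macrophages had a similar order of mice, with Il7r at 28.7 and 48.8 CPM in the Untreated mice, 68.3 and 41.5 with N297A, 80.2 with GA-aFuc and 88.4 with GITR/Syn GA-aFuc. The Il7r level of monocytes was above that of macrophages by 0.49 within mice (SE 0.12, edgeR adjusted p = 0.00955, against 56.6% of 12900 genes), and this was 0.38 with an adjusted p of 0.1 without the top 5% of cells by UMIs. The Il7r changes did not differ between monocytes and macrophages at the threshold (differences of -0.24, 0.18 and 0.45, edgeR adjusted p-values of 1.0, 0.956 and 0.974). In that model 0.00738% of 13556 genes passed for N297A, 0.0664% for GA-aFuc and 0.00738% for GITR/Syn GA-aFuc.

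**Figure D5:**
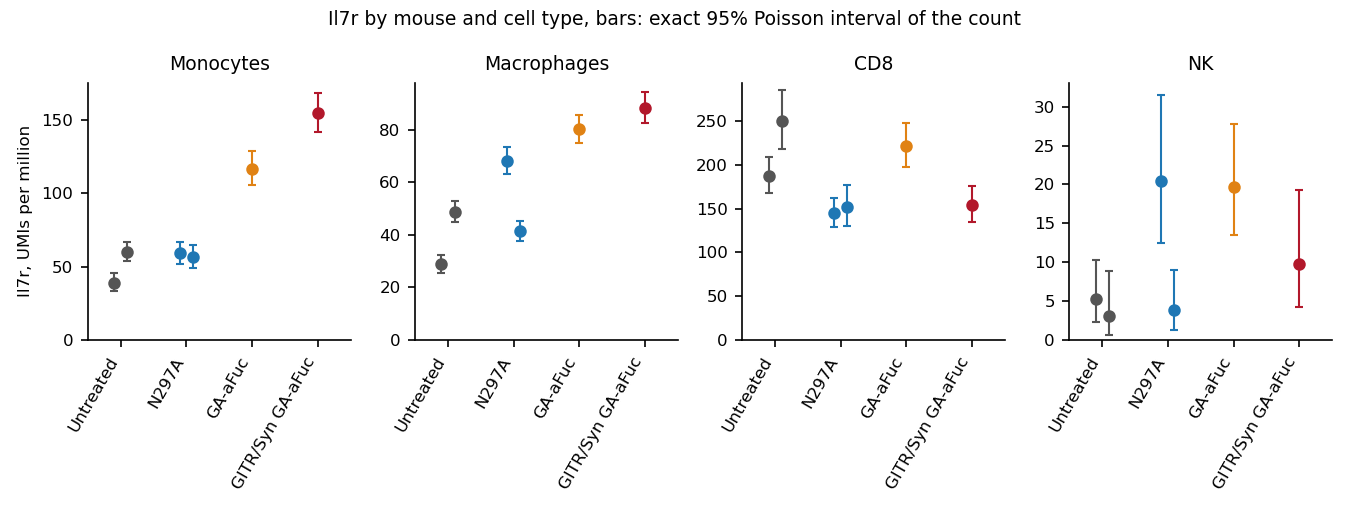
Il7r level (CPM, each panel with its own axis from 0) by mouse in monocytes, macrophages, CD8 T cells and NK cells, with exact 95% Poisson intervals that cover counting error only. In monocytes the mouse given GA-aFuc (117) and the one given GITR/Syn GA-aFuc (155) lie above the 4 other mice (39.0 to 60.2).

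The partners of these genes were read from 5 lists. Of 23 naive and memory companions, 19 were tested in CD8 T cells, and 1 fell with GITR/Syn GA-aFuc: Ccr7, the receptor that guides naive and memory T cells to lymph nodes (-2.42, SE 0.51, edgeR adjusted p = 0.0462). Over all genes 0.154% were called in this comparison, 0.0205% with N297A and 0.0922% with GA-aFuc. The median change of the list was -0.35, against 0.00 over all genes, and 0 were called with N297A or GA-aFuc (medians -0.20 and -0.13). Dapl1, a gene of naive and memory CD8 T cells, had the smallest p in both of these (-2.13, adjusted p = 0.15, and -1.25, adjusted p = 1.0). Of the effector and exhaustion genes, 19 of 20 were tested and 0 were called in CD8 T cells with any antibody, with medians of -0.09, 0.09 and 0.02. The tissue exit list repeats Ccr7, its 1 called gene of 9 tested. IL-7 signalling and the TCF and LEF cofactors had 0 called of 10 and of 7 in CD8 T cells. In NK cells, Pim1, a kinase gene induced through the IL-7 receptor's STAT5 pathway, was the 1 called gene of 10 IL-7 genes, and it fell with GITR/Syn GA-aFuc (-1.30, SE 0.23, edgeR adjusted p = 0.039) and with GA-aFuc against N297A (-1.11, SE 0.20, 0.0177), where 0.0434% and 0.119% of all genes were called. The other 4 lists had 0 called in NK cells, and all 5 lists had 0 called in the monocyte comparisons, where 0.00876% to 0.21% of all genes were called.

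The lists were also read between types. CD8 T cells were above NK cells in 9 and below in 7 of 19 companions, where 32.4% of all genes tested were called in either direction. Dapl1 (6.71) and Ccr7 (3.06) were higher, and the chemokine gene Xcl1 (-3.44) and the kinase gene Txk (-2.57) lower. IL-7 signalling genes were higher in CD8 T cells in 6 of 10 cases, among them the kinase gene Jak3 (0.84) and Stat5b (0.82), and lower in 1, Jak1 (-0.29), against the same 32.4%. The list medians were 0.35 for both, against -0.01 over all genes. Between monocytes and macrophages all 10 IL-7 signalling genes tested were higher in monocytes, where 56.6% of all genes were called in either direction, led by the cytokine-induced inhibitors Cish (1.57) and Socs1 (1.32), with a median of 0.57 against -0.02 over all genes.

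The patterns of the 7 genes over the 13 lymphoid clusters were compared with those of 7203 other genes by Pearson's r of log2(CPM + 5), as a description. Clusters share mice and 1 library. Among the members, Bach2 and Satb1 were most alike (r = 0.86), followed by Tcf7 and Lef1 (0.81), whereas Il7r ran apart from Bach2 (-0.37) and Tcf7 (-0.34). Klf2 and S1pr1 had r = 0.65. The genes most like Tcf7 were Emb, Aff3 and Pdlim1 (0.896, 0.877 and 0.874), and those most like Lef1 were Smad3, Gm4258 and Mideas (0.87, 0.86 and 0.847). For Il7r they were Pmaip1, Bcl11b and Adam19 (0.984, 0.97 and 0.967), Bcl11b being a T cell identity factor. For Satb1 they were Nfatc1, Nfat5 and Ireb2 (0.958, 0.926 and 0.913), for Bach2 Abtb3, Maea and Zfp451 (0.927, 0.922 and 0.92), for S1pr1 Chd3, Prrc2c and Rnf19b (0.957, 0.947 and 0.943), and for Klf2 Ep400, Oprm1 and Spred2 (0.93, 0.907 and 0.897).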

How the data were processed

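The 10x Genomics 3' library was deposited as raw UMI counts per gene and barcode, by Cell Ranger 9.0.0 per the submitters' processing notes, with GRCh38 and GRCm39 genes side by side per the file headers. The deposited counts are whole numbers with no normalization. Treatment, cell type and cluster come from the deposited cell table. How the authors filtered and clustered cells, and whether doublets were removed, was not given in the sources used here. Barcodes of the table with at least 1000 mouse UMIs were kept (8767). A hashtag was tied to the treatment that the table gives most of its cells. Barcodes that disagreed with it (33) and repeats (18) were left out, and 10443 entries fell outside this library. The top hashtag (median 96.2% of hashtag UMIs) decided the mouse. No doublet caller was run.

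Counts were summed per mouse and type and tested with edgeR 4.0.16 (R 4.3.3; TMM, filterByExpr, robust quasi-likelihood; 1 model of 4 treatments, 2 residual degrees of freedom), with Benjamini-Hochberg adjustment over all genes tested and a threshold of 0.05. Comparisons between types had the mouse as a block. Alternatives were DESeq2 1.42.0, limma-voom (3.58.1), RLE factors, no filter, fewer cells and each mouse left out. The scripts were tested on simulated data. All 7 members were described, with statistics for those called or, where none was, with the smallest p; for each list up to 4 genes were named, and 1 gene of the lists is not reported here. The 7 genes and the lists were chosen with earlier results of these data known. P-values of treatment comparisons rest on the spread within the Untreated and N297A pairs, with spread estimates shared between genes. They hold no spread within the groups of 1 mouse. P-values between types rest on the agreement between these mice. Columns of per-sample values left unused numbered 0.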

Additional observations from a re-analysis of the deposited data

Results flagged for a closer look

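The Bach2 change with GA-aFuc differed between monocytes and macrophages. In monocytes it was at 162 and 126 CPM in the Untreated mice and at 111 in the GA-aFuc mouse, while in macrophages it was at 57.8 and 36.7 and at 73.6. The log2 change was lower in monocytes than in macrophages by -1.033 (SE 0.159, edgeR adjusted p = 0.0129 for the difference of the changes), a test chosen after the data were seen. The GITR/Syn GA-aFuc mouse had 123 in monocytes and 66.8 in macrophages, and the difference of the changes was -0.750 with an edgeR adjusted p of 0.127. The N297A mice had 161 and 120.5 in monocytes and 73.0 and 46.3 in macrophages. The free RNA held 48.8 Bach2 CPM, within the range of the macrophage values, and its part in them was not tested. With 1 GA-aFuc mouse the treatment and the mouse cannot be told apart.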

How the results depend on the processing

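Most results were labelled as kept: 569 values were, against 19 that fell short of the threshold, 16 that passed it anew, 13 counts that moved and 8 that changed sign. For a single gene, kept means the same direction and side of the threshold, also where it never passed. A count of called members was taken as kept when equal or close to the main count. Single members could therefore cross the threshold within a kept count. Among the counts of called members, N297A in CD8 T cells had 1 with no filter on low counts and 1 with a top hashtag share of at least 90%, and 0 to 1 with each mouse left out. GITR/Syn GA-aFuc in CD8 T cells also had 0 to 1. GA-aFuc in NK cells had 1 with no filter. CD4 against CD8 T cells had 2 without the top cell of each gene, and Tregs against CD4 T cells had 1 each with DESeq2, without the top 5% of cells and without the top cell, and 1 to 2 with each mouse left out. Il7r in monocytes had these log2 changes. For N297A they lay between -0.05 and 0.60 with each mouse left out, the sign changing without Untreated replicate 1. For GA-aFuc they were 1.22 in DESeq2, 1.17 with no filter and 0.93 to 1.58 with each mouse left out. For GITR/Syn GA-aFuc they were 1.62 without the top 5% of cells, 1.66 without the top cell and 1.36 to 2.01 with each mouse left out. For GA-aFuc against N297A they were 0.96 with no filter and 0.95 to 1.01 with each mouse left out. Il7r in monocytes against macrophages was 0.38 without the top 5% of cells. Near 0, Lef1 in Tregs against CD8 T cells changed sign with no filter (-0.13), without the top cell (-0.46) and over mice left out (-0.05 to 0.12), and Klf2 in CD4 against CD8 T cells did so with no filter (-0.02), with the hashtag share (-0.08), without the top cell (-0.32) and over mice left out (-0.28 to 0.33). The causes were not tested. Leaving out the top cell was chosen after seeing the data. No paired analysis was possible because each mouse had a single treatment, and comparisons between types already had the mouse as a block. Groups of 1 mouse, 12 to 24 CD4 T cells and 3 to 24 Tregs per mouse limit the precision.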

Other observations

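Some members were read in rare dendritic cells that no comparison above used. Mature regulatory dendritic cells (mregDC, 57 cells) held 32 Tcf7 UMIs, or 58.6 CPM (exact 95% Poisson interval 40.1 to 82.8), with 118 and 64.2 in the Untreated mice, 36.5 in the GA-aFuc mouse, 59.0 in the GITR/Syn GA-aFuc mouse and 0 UMIs in the 13 cells of both N297A mice. They held 0 Lef1 UMIs, which allows up to 5.50 CPM. Il7r stood at 401 CPM in them, between 216 and 602.9 by mouse, and at 263 (199 to 342) in 21 plasmacytoid dendritic cells, where Tcf7 and Lef1 had 0 UMIs, which allows up to 14.1 CPM. cDC1 (47 cells) held 1 Il7r UMI. These values were not tested.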
